A study of Mus musculus with 12 samples.

Results

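The TAM receptors and their ligands were examined in bone marrow-derived macrophages (BMDMs), as the rows of the count table whose gene symbol is Mertk, Axl, Tyro3, Gas6 or Pros1. These were 5 of the 43131 genes in the table, and each gene was represented by the transcript row with the highest total. The cells came from C57BL/6 mice and were grown for 7 days in 50 ng/mL M-CSF. In tlr4f/f mice the Tlr4 gene is flanked by loxP sites, and in tlr4f/f-lysM-cre mice Cre recombinase, expressed from the lysozyme (Lyz2) locus of myeloid cells, is there to remove it. The 4 groups of 3 libraries were headed by genotype, tlr4f/f or tlr4f/f-lysM-cre, each once as LPS- and once as LPS+. All 4 groups therefore carried the floxed allele, and LPS+ cells had received 1 µg/mL of lipopolysaccharide (LPS), the bacterial ligand of TLR4, for 6 h. No source says whether the 3 libraries of a group came from separate mice or cultures, so p-values measure the spread between these libraries, which may be technical.

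Mertk, Axl and Tyro3 are receptor tyrosine kinases that share an extracellular part of immunoglobulin and fibronectin domains. They do not bind apoptotic cells themselves: the secreted proteins Gas6 and protein S (Pros1) bind phosphatidylserine on the dying cell through a vitamin K dependent Gla domain and the receptor through their other end. In macrophages Mertk is known for the clearance of apoptotic cells, and signalling through Mertk and Axl is known to restrain Toll-like receptor and cytokine responses. Gas6 and Axl are made by fibroblasts and endothelial cells as well as by macrophages.

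Tlr4 itself was checked first. Tlr4, the receptor the Cre line targets, had similar levels in both genotypes as headed, and it was lower in all 6 libraries headed LPS+ (24.3 to 31.1 counts per 1000000, CPM) than in the 6 headed LPS- (76.7 to 147 CPM). Lyz2 followed the same division, with at most 75.6 CPM in libraries headed LPS+ and at least 5950 CPM in the others. Il1b, a cytokine gene that LPS induces, instead divided the libraries by genotype: 0.0748 to 6.93 CPM in both groups headed tlr4f/f and 1640 to 8220 CPM in both groups headed tlr4f/f-lysM-cre. These values go against the headings and would follow them if LPS+ tlr4f/f were exchanged with LPS- tlr4f/f-lysM-cre, so both readings apply throughout, and where 1 name is given it is that of the headings. The exchange changes no value and only renames the 4 comparisons. What is headed as the genotype without LPS becomes LPS in tlr4f/f, and what is headed as the genotype with LPS becomes LPS in tlr4f/f-lysM-cre. The headed LPS comparisons become the genotype without LPS (for tlr4f/f) and with LPS (for tlr4f/f-lysM-cre), and the interaction of genotype and LPS is the same number in both readings.

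Markers of other cells also differed between libraries. Macrophage markers were all detected in every library (8 of 8). They summed to 12939 to 28816 CPM in libraries headed LPS- and to 4114 to 6111 CPM in those headed LPS+. Lyz2, 1 of these 8, was at 5950 CPM or more in the former and at most 75.6 CPM in the latter. The 8 fibroblast and stroma markers were all detected in each group, with summed levels of 9.53 to 668 CPM in LPS- tlr4f/f, 189 to 1511 CPM in LPS- tlr4f/f-lysM-cre, 20.8 to 25.5 CPM in LPS+ tlr4f/f and 45.7 to 57.9 CPM in LPS+ tlr4f/f-lysM-cre. The sums over 600 CPM were those of LPS- tlr4f/f replicate 1 and of LPS- tlr4f/f-lysM-cre replicates 1 and 3. The 5 endothelial markers summed to 39.6 to 122 CPM in LPS- tlr4f/f-lysM-cre and to at most 16.1 CPM in the other groups. Most of the sum in LPS- tlr4f/f-lysM-cre was Kdr, at 47.0, 115 and 32.1 CPM in replicates 1, 2 and 3. Pecam1 and Cdh5 averaged 3.16 and 2.17 CPM there, and Tek and Emcn were at 0 in replicates 1 and 2. Neutrophil markers summed to 14.7 to 186 CPM in LPS- tlr4f/f-lysM-cre and to at most 13.2 CPM elsewhere. The highest sum was that of replicate 3, where S100a8 was at 125 CPM, and replicates 1 and 2 summed to 27.2 and 14.7 CPM. Ly6g had 1 count in replicate 2 of that group and 0 in every other library. Dendritic cell and lymphocyte markers summed to at most 6.32 CPM in any library.

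Among the 5 genes, Gas6 was the one that differed in the same direction throughout: it was lower in LPS+ tlr4f/f and in LPS- tlr4f/f-lysM-cre than in LPS- tlr4f/f, and lowest in LPS+ tlr4f/f-lysM-cre. A gene was called differentially expressed (DEG) where it changed more than 2-fold and its p from edgeR's quasi-likelihood test, adjusted after Benjamini and Hochberg over all genes tested, was below 0.01. By this rule 1 of the 5 genes was a DEG between genotypes without LPS (Gas6, lower), where 17.1% of the 14635 genes tested were DEGs and 7.81% were lower. With LPS, 1 of the 4 members tested was a DEG (Gas6, lower), against 21.7% of all genes and 10.9% lower. In LPS+ against LPS- tlr4f/f no member and no gene was a DEG (0% of 14701). By edgeR's unadjusted p below 0.05, 3624 genes (24.7%) passed. DESeq2 called 2 members there, but the share of all genes that DESeq2 called was not counted. In LPS+ against LPS- tlr4f/f-lysM-cre 1 of 4 members tested was a DEG (Gas6, lower), against 6.08% of all genes and 3.65% lower. The median log2 fold change of the members tested was 0.046, 0.12, -0.99 and -0.63 in these comparisons, beside medians of -0.077, -0.021, -0.035 and 0.027 over all genes tested. With 4 or 5 members, these counts describe the genes one by one.

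**Figure D1:**
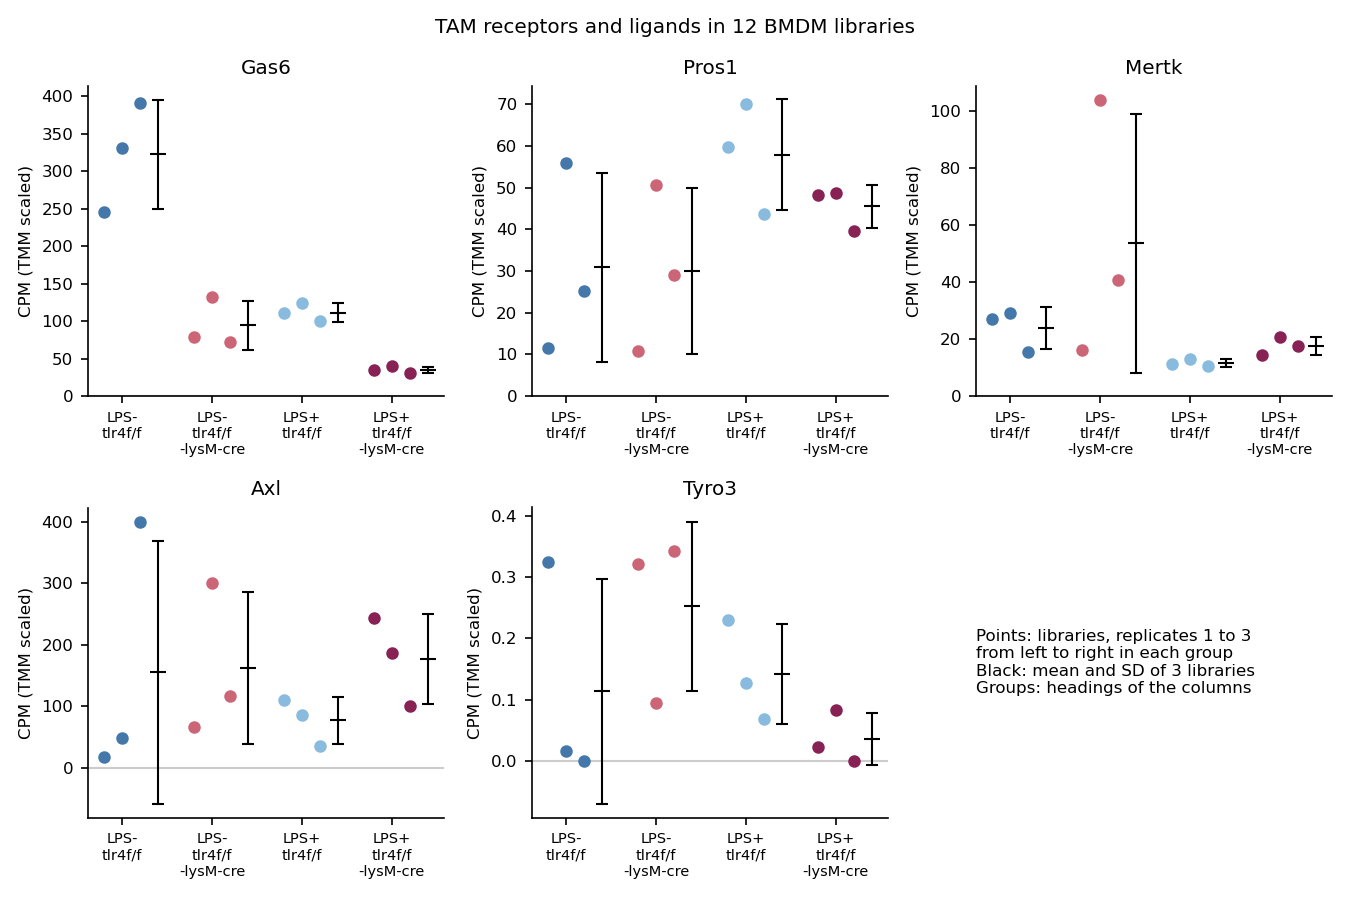
Level of each gene (CPM, TMM scaled) in the 12 libraries, by column heading. Points are libraries and black marks are the mean and SD of 3. Gas6 lies at 246 to 391 CPM in LPS- tlr4f/f and at 31.5 to 39.7 CPM in LPS+ tlr4f/f-lysM-cre without overlap, while Axl in LPS- tlr4f/f runs from 16.5 to 400 CPM within 1 group.

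Gas6, the bridging ligand with affinity for all 3 receptors, lies on the minus strand of chromosome 8 (chr8:13465374-13494490, mm10). Its transcript of 15 exons and 2593 bases is the gene's 1 row in the table. One exon shares 34 bases with Tmem255b on the opposite strand, and whether counting used strand is not given in the sources used here. Tmem255b had at most 5 counts in any library. The LPS- tlr4f/f libraries had 14393, 20653 and 20909 counts, or 246, 331 and 391 CPM. The LPS- tlr4f/f-lysM-cre libraries had 78.6, 132 and 72.3 CPM, from 2322 to 4222 counts. In LPS+ tlr4f/f the level was 110, 124 and 99.8 CPM, and in LPS+ tlr4f/f-lysM-cre it was 34.6, 39.7 and 31.5 CPM, from 1418 to 1496 counts. The first group was thus above all the others and the last below all the others, and the middle groups overlapped.

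As group means, Gas6 fell from 323 ± 72.7 CPM in LPS- tlr4f/f to 94.3 ± 32.8 CPM in LPS- tlr4f/f-lysM-cre (SD, n = 3 each). This difference, the genotype without LPS as headed and LPS in tlr4f/f in the exchanged reading, was -1.79 ± 0.289 on the log2 scale (fit ± standard error; edgeR adjusted p = 0.00473). The DEG call was lost without LPS- tlr4f/f replicate 2 (edgeR adjusted p = 0.0173) or replicate 3 (0.0141), and without LPS- tlr4f/f-lysM-cre replicate 1 (0.0261) or replicate 3 (0.0234), with log2 fold changes from -2.09 to -1.60 over the 6 omissions. With the 3 libraries of high stroma markers left out, 1 LPS- tlr4f/f-lysM-cre library remained, assumed to vary like the others, and the value was -1.42 (edgeR adjusted p = 0.113).

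With LPS, Gas6 was 35.3 ± 4.15 CPM in LPS+ tlr4f/f-lysM-cre against 111 ± 12.3 CPM in LPS+ tlr4f/f (SD, n = 3 each). The difference was -1.67 ± 0.102 on the log2 scale (edgeR adjusted p = 7.64e-07). It is the genotype with LPS as headed and LPS in tlr4f/f-lysM-cre in the exchanged reading. It stayed a DEG without any 1 of the 6 libraries, none of which had high stroma markers, with edgeR adjusted p from 2.61e-08 to 3.27e-05.

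Gas6 differed between LPS+ and LPS- tlr4f/f, which is the genotype without LPS in the exchanged reading, by -1.51 ± 0.185 (edgeR adjusted p = 0.0402), within a set of 187 genes (1.27%) at an adjusted p below 0.05. This passed the DEG rule without LPS- tlr4f/f replicate 3 (edgeR adjusted p = 0.00900), and exceeded 0.05 without LPS+ tlr4f/f replicate 1 (0.262), replicate 2 (0.251) or replicate 3 (0.258). Within tlr4f/f-lysM-cre, between LPS+ and LPS-, which is the genotype with LPS in the exchanged reading, it differed by -1.40 ± 0.233 (edgeR adjusted p = 0.00822). That call was lost without LPS- tlr4f/f-lysM-cre replicate 1 (edgeR adjusted p = 0.0113) and without LPS+ tlr4f/f-lysM-cre replicate 1 (0.0506), replicate 2 (0.0418) or replicate 3 (0.0535). It was also lost when transcript rows were summed for every gene (-1.39, edgeR adjusted p = 0.0131).

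The order of Gas6 levels was therefore LPS- tlr4f/f first, next LPS+ tlr4f/f with LPS- tlr4f/f-lysM-cre, and last LPS+ tlr4f/f-lysM-cre. The middle groups, with means of 111 and 94.3 CPM, did not differ beyond their spread (log2 difference -0.26, edgeR adjusted p = 0.379). From first to last the log2 difference was -3.20 ± 0.203 (edgeR adjusted p = 0.000261), with a mean in the last group of 0.109 of that in the first. The interaction was 0.12 ± 0.329 (edgeR adjusted p = 0.868). Groups did not overlap for Gas6 in any of the 4 comparisons, as for 54.2%, 67.3%, 35.5% and 48% of all genes tested, in the order above. Since this is bulk RNA, fewer cells making Gas6 and less Gas6 RNA per cell cannot be told apart. The stroma marker sum was highest in LPS- tlr4f/f-lysM-cre, where Gas6 was low, and its part in these differences was not tested.

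**Figure D2:**
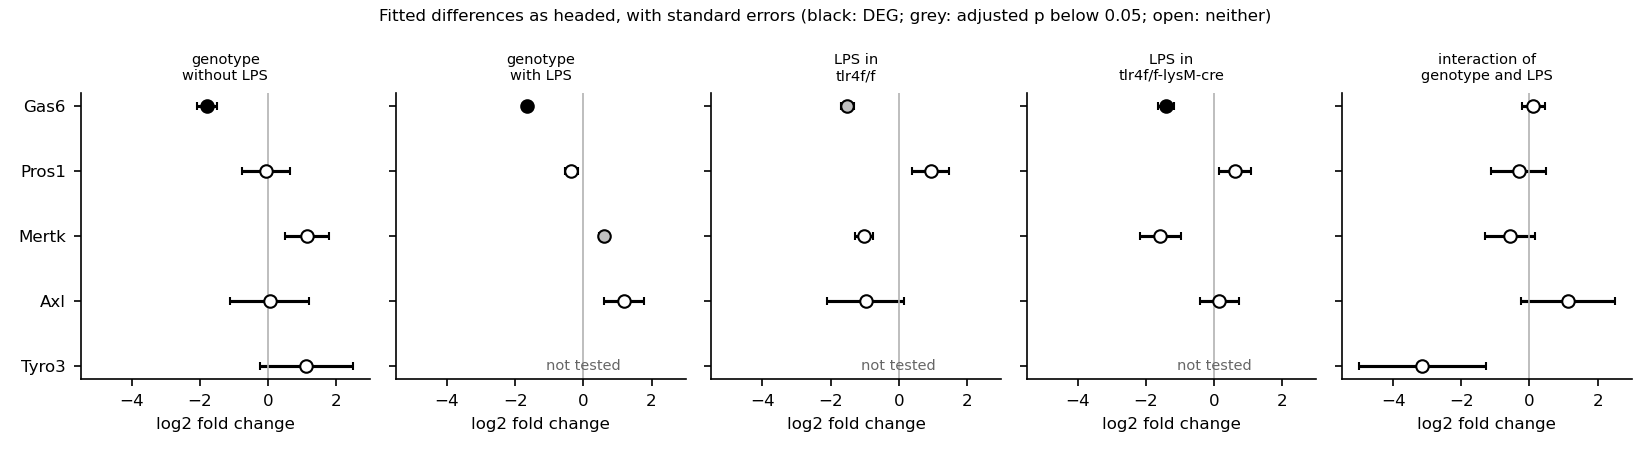
Fitted log2 fold change of each gene (points) with its standard error (bars), for the 4 comparisons as headed and the interaction. Gas6 lies between -1.79 and -1.40 in the 4 comparisons and at 0.12 in the interaction, while Axl, Pros1 and Mertk lie on both sides of 0.

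The promoter of Gas6 is shown with that of Mertk, the receptor with the other adjusted p below 0.05, as RefSeq gives them (GRCm38.p6). The windows run from 250 bases before the start site to 50 after it, and 5 of 5 members had one. The capital letter marks the start site that RefSeq gives.
Gas6, chr8:13494486-13494785, minus strand: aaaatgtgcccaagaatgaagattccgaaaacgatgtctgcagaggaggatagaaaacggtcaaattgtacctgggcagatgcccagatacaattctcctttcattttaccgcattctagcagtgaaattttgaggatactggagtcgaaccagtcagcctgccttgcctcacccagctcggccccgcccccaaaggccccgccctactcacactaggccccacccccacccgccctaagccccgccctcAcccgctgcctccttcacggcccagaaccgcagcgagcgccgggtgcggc
Mertk, chr2:128698665-128698964, plus strand: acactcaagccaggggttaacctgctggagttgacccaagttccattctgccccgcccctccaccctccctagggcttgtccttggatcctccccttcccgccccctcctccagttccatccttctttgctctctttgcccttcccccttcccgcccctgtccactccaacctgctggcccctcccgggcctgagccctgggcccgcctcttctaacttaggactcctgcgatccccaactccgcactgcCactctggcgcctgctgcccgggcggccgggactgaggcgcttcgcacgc
The windows of the 5 genes were richer in G and C (58.3% in Gas6 to 73.3% in Tyro3) than the median promoter (52.7%).

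Pros1 encodes protein S, also an anticoagulant cofactor in plasma, and lies at chr16:62854307-62929346 on the plus strand, with 15 exons. It was the ligand with no DEG call. The LPS- tlr4f/f libraries had 11.5, 55.9 and 25.2 CPM and the LPS- tlr4f/f-lysM-cre libraries 10.7, 50.5 and 29.0 CPM. In LPS+ tlr4f/f the level was 59.8, 70.2 and 43.8 CPM, and in LPS+ tlr4f/f-lysM-cre 48.2, 48.8 and 39.7 CPM, from 1771 to 2855 counts in these 6 libraries. Both groups headed LPS- were spread widely and overlapped those headed LPS+, although replicates 1 and 3 of each lay below all 6 libraries headed LPS+.

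The means of Pros1 were 57.9 ± 13.3 CPM in LPS+ tlr4f/f, 45.6 ± 5.14 in LPS+ tlr4f/f-lysM-cre, 30.9 ± 22.7 in LPS- tlr4f/f and 30.1 ± 19.9 in LPS- tlr4f/f-lysM-cre (SD, n = 3 each). No neighbours in this order differed beyond their spread. From LPS- to LPS+ the fitted log2 difference of tlr4f/f was 0.93 ± 0.545, and that of tlr4f/f-lysM-cre 0.62 ± 0.479 (edgeR adjusted p = 0.338 and 0.377). Over omissions of 1 library the first ran from 0.55 without LPS- tlr4f/f replicate 1 to 1.69 without replicate 2 (edgeR adjusted p at least 0.0687). The second ran from 0.19 without LPS- tlr4f/f-lysM-cre replicate 1 to 1.20 without replicate 2 (edgeR adjusted p at least 0.0825). Between genotypes it was -0.054 ± 0.705 without LPS (edgeR adjusted p = 0.960) and -0.35 ± 0.192 with LPS (0.174). Without LPS+ tlr4f/f replicate 3 the last value was -0.53 (edgeR adjusted p = 0.00111), still under a 2-fold change.

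Mertk (chr2:128698956-128802894, plus strand) was represented by a transcript of 4889 bases. The LPS- tlr4f/f libraries had 27.0, 29.2 and 15.6 CPM. The LPS- tlr4f/f-lysM-cre libraries had 16.1, 104 and 40.5 CPM, a 6.44-fold range from 601 to 3322 counts. In LPS+ tlr4f/f the level was 11.3, 13.2 and 10.5 CPM, and in LPS+ tlr4f/f-lysM-cre 14.4, 20.7 and 17.7 CPM. Mertk was thus lowest in LPS+ tlr4f/f, which overlapped no other group, and its highest library was LPS- tlr4f/f-lysM-cre replicate 2, the one of that group with the lowest stroma marker sum. The part of stroma in the Mertk levels was not tested.

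With LPS, Mertk was 17.6 ± 3.13 CPM in LPS+ tlr4f/f-lysM-cre and 11.6 ± 1.37 CPM in LPS+ tlr4f/f (SD, n = 3 each). The ratio of the means was 1.51, and the log2 difference of 0.59 ± 0.135 had an edgeR adjusted p of 0.00280. The change was under 2-fold, so it was no DEG, and 61.4% of all genes passed an adjusted p below 0.05 in this comparison. Its edgeR adjusted p ran from 0.000216 to 0.0152 over the omissions of 1 library and was 0.430 when all 12 libraries shared 1 estimate of the spread. In the exchanged reading this is LPS in tlr4f/f-lysM-cre.

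The other 3 of the 4 comparisons did not pass an adjusted p below 0.05 for Mertk. LPS+ and LPS- tlr4f/f did not overlap, as for 35.5% of all genes tested. The log2 difference between them was -1.02 ± 0.253 (edgeR adjusted p = 0.0863). Without LPS- tlr4f/f replicate 3 this was -1.25 and a DEG (edgeR adjusted p = 0.00636), and DESeq2 gave -1.01 and a DEG (adjusted p = 0.00532). That between LPS+ and LPS- tlr4f/f-lysM-cre was -1.58 ± 0.600 (edgeR adjusted p = 0.0968). It ran from -2.04 (edgeR adjusted p = 0.0162) without LPS- tlr4f/f-lysM-cre replicate 1 to -0.69 (0.239) without replicate 2, the library with 104 CPM. With both libraries of high stroma markers left out, that library alone stood for its group and the difference was -2.57, for which the spread came from LPS+ tlr4f/f-lysM-cre alone. The genotype difference without LPS was 1.14 ± 0.640 (edgeR adjusted p = 0.206) and fell to 0.25 without LPS- tlr4f/f-lysM-cre replicate 2. By mean, Mertk was 53.5 ± 45.3 CPM in LPS- tlr4f/f-lysM-cre and 23.9 ± 7.31 CPM in LPS- tlr4f/f, ahead of both groups headed LPS+ (SD, n = 3 each). In this order only the last neighbours, both headed LPS+, differed beyond their spread. LPS- tlr4f/f-lysM-cre also lay above LPS+ tlr4f/f, from which it differs in genotype and LPS, without overlap (log2 difference 2.18 ± 0.607, edgeR adjusted p = 0.0214) and outside the DEG rule. Of all genes tested between these 2 groups, 65.8% did not overlap and 53.5% had an edgeR adjusted p below 0.05.

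Axl (chr7:25757273-25788705, minus strand, 20 exons) is the receptor that binds Gas6 and is known to be raised by inflammatory stimuli in macrophages. Its libraries were spread widely within groups. The LPS- tlr4f/f libraries had 962, 2951 and 21423 counts, which are 16.5, 47.4 and 400 CPM, a 24.3-fold range. The LPS- tlr4f/f-lysM-cre libraries had 66.0, 301 and 117 CPM. In LPS+ tlr4f/f the level was 110, 84.8 and 35.7 CPM, and in LPS+ tlr4f/f-lysM-cre 244, 186 and 99.8 CPM. The highest and the lowest of the 12 libraries were both in LPS- tlr4f/f. The stroma marker sum ran the opposite way in that group, at 9.53 CPM in the library with the most Axl and 668 CPM in the one with the least. In LPS- tlr4f/f-lysM-cre the library with the most Axl also had the lowest sum (189 CPM). In the groups headed LPS+ the sum ran the same way as Axl, from 25.5 to 20.8 CPM in LPS+ tlr4f/f and from 57.9 to 45.7 CPM in LPS+ tlr4f/f-lysM-cre. The part of stroma in the Axl levels was not tested.

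All comparisons of Axl overlapped, and none passed in fits without a term for replicate number. With that term the genotype difference with LPS passed the DEG rule, as given in the last section. Replicate numbers were not shown to pair the samples, although 10 of 12 libraries correlated best with their own number in the other groups. In both groups headed LPS+, Axl fell from replicate 1 to replicate 3. The means were 177 ± 72.6 CPM in LPS+ tlr4f/f-lysM-cre, 161 ± 124 in LPS- tlr4f/f-lysM-cre, 155 ± 213 in LPS- tlr4f/f and 76.9 ± 37.9 in LPS+ tlr4f/f (SD, n = 3 each), and no neighbours differed beyond their spread. The genotype difference was 0.046 ± 1.15 without LPS (edgeR adjusted p = 0.979) and 1.20 ± 0.581 with LPS (0.150) on the log2 scale. From LPS- to LPS+ that of tlr4f/f was -0.97 ± 1.12 and that of tlr4f/f-lysM-cre 0.15 ± 0.564 (edgeR adjusted p = 0.633 and 0.865). Without LPS- tlr4f/f replicate 3, the library with 400 CPM, the first value rose to 2.31 and the third turned to 1.29, both with an edgeR adjusted p above 0.05 (0.0812 and 0.256).

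Tyro3 (chr2:119797733-119818104, plus strand, 19 exons), the member best known from the nervous system, was close to undetected. The counts were 19, 1 and 0 in LPS- tlr4f/f, 12, 3 and 11 in LPS- tlr4f/f-lysM-cre, 11, 5 and 4 in LPS+ tlr4f/f and 1, 3 and 0 in LPS+ tlr4f/f-lysM-cre. No library exceeded 0.342 CPM. The filter on low counts passed Tyro3 in the genotype comparison without LPS, where the log2 difference was 1.13 ± 1.37 (edgeR adjusted p = 0.545), and removed it from the other 3 comparisons. Over omissions this ran from 0.55 without LPS- tlr4f/f replicate 3 to 4.50 (edgeR adjusted p = 0.0538) without replicate 1, which left 1 and 0 counts in that group. The libraries with 11 or more counts were LPS- tlr4f/f replicate 1, LPS- tlr4f/f-lysM-cre replicates 1 and 3 and LPS+ tlr4f/f replicate 1. The first 3 are the libraries with stroma marker sums over 600 CPM, and the part of other cells in the Tyro3 counts was not tested.

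No member had an interaction of genotype and LPS that passed, where 1.04% of all 15775 genes were DEGs and 6.99% had an adjusted p below 0.05. The fitted interaction was -0.56 ± 0.727 for Mertk (edgeR adjusted p = 0.695), 1.14 for Axl (0.673), -0.31 for Pros1 (0.856) and -3.14 ± 1.85 for the sparse Tyro3 (0.342), on the log2 scale. Without LPS- tlr4f/f replicate 1 the Tyro3 value was -6.50 (edgeR adjusted p = 0.0497), outside the DEG rule.

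**Figure D3:**
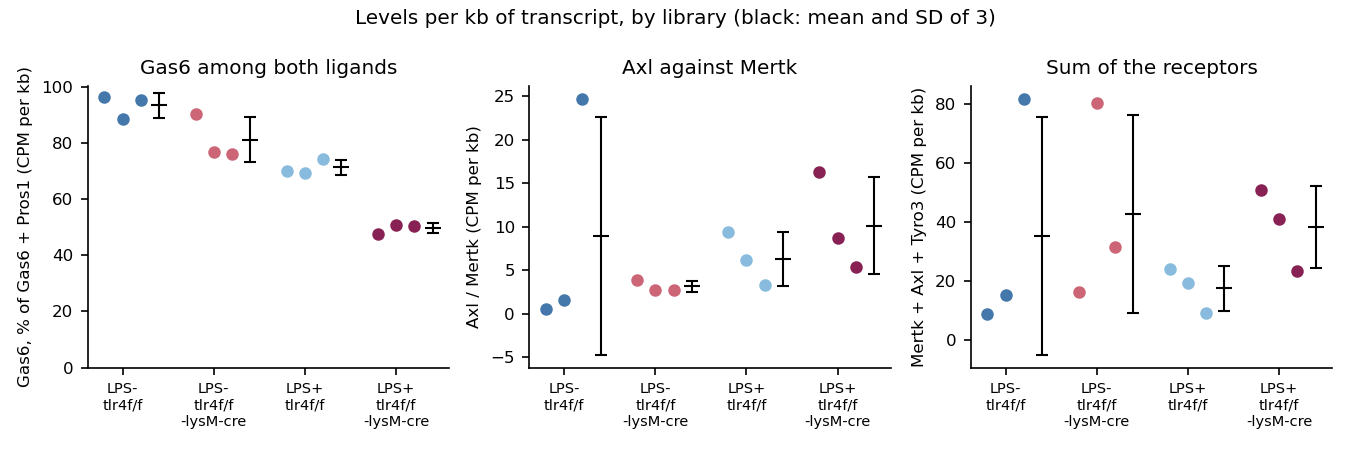
Gas6 as a percentage of both ligands, the ratio of Axl to Mertk, and the sum of the 3 receptors (CPM per kb of transcript) in the 12 libraries by heading. Points are libraries and black marks the mean and SD of 3; the Gas6 share runs from 88.3% to 96.5% in LPS- tlr4f/f to 47.7% to 50.9% in LPS+ tlr4f/f-lysM-cre.

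Levels of different members were compared per kb of transcript. Gas6 made up 96.5%, 88.3% and 95.2% of the summed ligand level in LPS- tlr4f/f and 90.3%, 76.9% and 76.0% in LPS- tlr4f/f-lysM-cre. In LPS+ tlr4f/f its share was 70.1%, 69.3% and 74.4%, and in LPS+ tlr4f/f-lysM-cre 47.7%, 50.9% and 50.3%. Gas6 thus exceeded Pros1 clearly in 9 libraries and was level with it in the last group. The means of the share were 93.3% ± 4.39, 81.1% ± 8.01, 71.3% ± 2.74 and 49.6% ± 1.68 (SD, n = 3 each), and the groups overlapped only between both groups headed LPS-. An exact two-sided permutation test gave p = 0.1 for each of the 5 comparisons without overlap, the smallest p that 3 libraries against 3 allow, and p = 0.2 for the sixth. After Benjamini-Hochberg adjustment over 12 such tests of the share and of the receptor ratio, the exact permutation p was 0.2 and 0.3.

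Among the receptors, Axl exceeded Mertk per kb in 11 of the 12 libraries, the exception being LPS- tlr4f/f replicate 1 with a ratio of 0.586. The ratio was 1.56 and 24.7 in the other LPS- tlr4f/f libraries and 3.94, 2.79 and 2.77 in LPS- tlr4f/f-lysM-cre. It was 9.43, 6.20 and 3.27 in LPS+ tlr4f/f and 16.3, 8.67 and 5.42 in LPS+ tlr4f/f-lysM-cre. The last group lay above LPS- tlr4f/f-lysM-cre without overlap (exact permutation p = 0.1, two-sided, n = 3 each), and the other 5 comparisons overlapped. The 3 receptors together summed to 8.85 to 81.9 CPM per kb, with both of the highest libraries, at 81.9 and 80.5, headed LPS-.

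**Figure D4:**
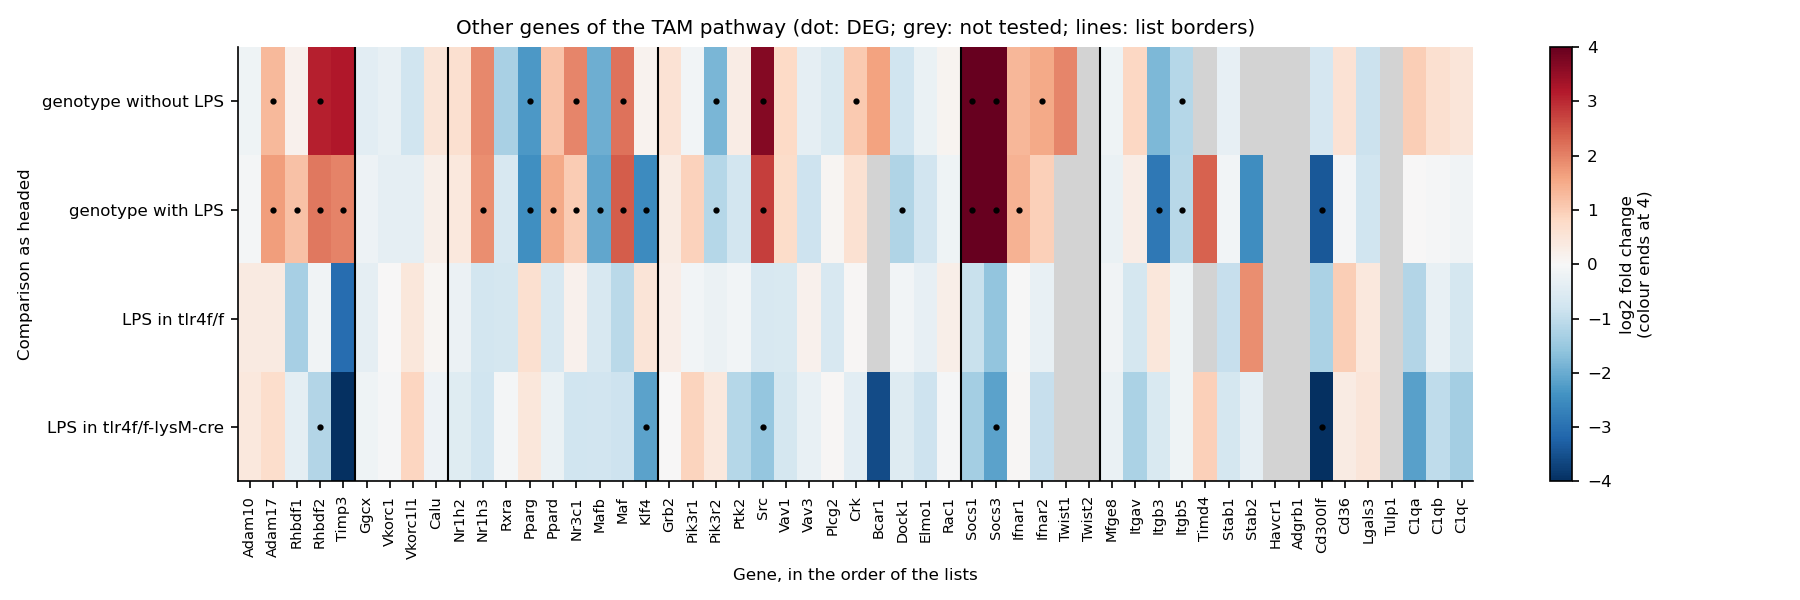
Log2 fold change (colour, ending at 4 in either direction) of the other genes of the TAM pathway in the 4 comparisons as headed. Dots mark DEGs, grey cells genes not tested, and vertical lines the borders of the 6 lists. Socs1 and Socs3 stand out in both genotype comparisons, and the row for LPS in tlr4f/f holds no dot.

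Of the proteins that release TAM receptors from the cell surface and their controls, 2 of 5 were DEGs between genotypes without LPS and 4 of 5 with LPS, all higher in tlr4f/f-lysM-cre, beside 9.25% and 10.8% of all genes higher. Adam17, the protease known to cut Mertk from macrophages, averaged 567 ± 140 CPM in LPS- tlr4f/f-lysM-cre and 908 ± 13.1 CPM in LPS+ tlr4f/f-lysM-cre (SD, n = 3 each). In the tlr4f/f groups it ran from 213 to 251 CPM in the libraries headed LPS- and from 262 to 297 CPM in those headed LPS+. Its log2 fold changes were 1.31 ± 0.221 without LPS (edgeR adjusted p = 0.00548) and 1.67 ± 0.0604 with LPS (1.93e-10). Rhbdf2, which carries ADAM17 to the surface, was higher by 3.12 and 2.11 in the same comparisons and lower at -1.18 in LPS+ than in LPS- tlr4f/f-lysM-cre. Timp3, an ADAM17 inhibitor, passed with LPS at 1.99 ± 0.303, from 0.427 to 1.69 CPM by group mean. Timp3 reached 48.8 CPM in LPS- tlr4f/f-lysM-cre, the group with the highest stroma marker sums, whose part in this was not tested. The list's median was 1.31, 1.67, -0.15 and -0.38 in the 4 comparisons.

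Of the 4 genes of vitamin K dependent carboxylation, by which the Gla domains of Gas6 and protein S are made, none was a DEG in the 4 comparisons, and with LPS 1 was higher and 2 were lower at an edgeR adjusted p below 0.05, which 61.4% of all genes passed. Ggcx, the carboxylase itself, averaged 5.35 to 8.04 CPM over the 4 groups.

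The transcription factors known upstream of TAM genes or of efferocytosis included DEGs in both directions. Between genotypes without LPS 2 of 9 were higher and 1 lower, and with LPS 4 were higher and 3 lower, beside 9.25% higher and 7.81% lower of all genes without LPS and 10.8% and 10.9% with LPS. Pparg, a lipid sensing nuclear receptor, averaged 39.4 and 60.4 CPM in the tlr4f/f groups without and with LPS and 8.04 and 10.9 CPM in the tlr4f/f-lysM-cre groups, with log2 fold changes of -2.30 and -2.47. Maf, a macrophage transcription factor, moved the other way, by 2.18 and 2.43. Nr3c1, the glucocorticoid receptor, was higher by 1.96 without LPS. Klf4 was 5.08 ± 1.19 CPM in LPS+ tlr4f/f-lysM-cre and 20.4 to 28.9 CPM by group mean elsewhere (SD, n = 3). Its log2 fold change was -2.51 between genotypes with LPS and -2.14 between LPS+ and LPS- tlr4f/f-lysM-cre, and its interaction was -2.64 ± 0.319 (edgeR adjusted p = 0.00244).

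Kinase signalling and engulfment partners held 2 higher and 1 lower DEG of 13 tested between genotypes without LPS, and 1 higher and 2 lower of 12 tested with LPS, near the shares of all genes that were DEGs (17.1% and 21.7%). Src, a kinase that acts with TAM receptors, was higher by 3.67 ± 0.515 without LPS and 2.78 ± 0.0734 with LPS, and lower at -1.54 in LPS+ than in LPS- tlr4f/f-lysM-cre. Its group means were 258 and 88.2 CPM in tlr4f/f-lysM-cre without and with LPS, against 20.1 and 12.8 CPM in tlr4f/f. Pik3r2, a regulatory subunit of PI3 kinase, was lower at -1.82 and -1.13, Crk was higher by 1.04 without LPS, and Dock1, which activates Rac in engulfment, was lower at -1.20 with LPS.

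Of the genes through which TAM signalling is known to feed back on innate responses, 3 of 5 tested were higher DEGs between genotypes without LPS and 3 of 4 with LPS, beside 9.25% and 10.8% of all genes, and none was lower. Socs3 averaged 2093 ± 437 and 471 ± 8.45 CPM in tlr4f/f-lysM-cre without and with LPS, against 7.17 ± 5.21 and 2.38 ± 0.707 CPM in tlr4f/f (SD, n = 3 each). Its log2 fold changes were 8.17 ± 0.975 and 7.65 ± 0.154 between genotypes, and -2.14 between LPS+ and LPS- tlr4f/f-lysM-cre. Socs1 was higher by 5.95 and 5.54. Socs1 and Socs3 are also induced directly by cytokines and LPS, and the 7 markers of LPS activation summed to 11978 to 26727 and 5185 to 6006 CPM in the groups headed tlr4f/f-lysM-cre, against at most 327 CPM in those headed tlr4f/f. The part of that activation in the SOCS levels was not tested.

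The other phosphatidylserine receptors and bridging proteins had no higher DEG in the 4 comparisons. Of 11 tested without LPS 1 was lower between genotypes, and of 13 tested with LPS 3 were lower, beside 7.81% and 10.9% of all genes. Itgb5, a subunit of an integrin that binds the bridging protein Mfge8, was lower at -1.14 and -1.12. Itgb3, another such subunit, was lower at -2.86 with LPS, from 17.4 to 2.39 CPM by mean. Cd300lf, a phosphatidylserine receptor, was lower at -3.40 with LPS and at -4.01 in LPS+ against LPS- tlr4f/f-lysM-cre, at levels of 0.340 to 8.87 CPM by group mean. Mfge8 itself averaged 182 to 247 CPM over the 4 groups and was no DEG. In the exchanged reading every value in these lists stays and the names of the comparisons change as for Gas6. In LPS+ against LPS- tlr4f/f no gene of any list was a DEG, as no gene at all was called there (0% of 14701). Lyz2 was not called either, at a mean of 13106 CPM in LPS- tlr4f/f and 11.8 CPM in LPS+ tlr4f/f. The lack of calls in this comparison therefore does not show that levels were alike.

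The genes most like each member were sought by Pearson's r over the 12 libraries, on log2 CPM with a prior count of 2, as a description, since libraries of a group share their condition. Map1s, a microtubule-associated protein gene, was most like Gas6 (r = 0.987), followed by Cchcr1, Pcbp4, Chd3 and Rnf220 (r = 0.970 to 0.968). Map1s ran from 57.4 to 112 CPM, a narrower range than that of Gas6. For Axl the list was led by H2-Eb1, an MHC class II gene (r = 0.916), and held H2-Aa (0.877), Plxdc2, Gm10785 and Plscr1. For Mertk it was led by Scnm1 (r = 0.941) with Slc25a28, Zfp276, Kansl3 and Sys1, and for Pros1 by Tmed3 (r = 0.963) with Npl, Csf2rb2 and Pde1c. Tyro3 had too few counts for its list, led by Rarres1 (r = 0.928), to be read. The lists depended on the measure: of each 5 genes, Spearman's rho kept 2 for Gas6, 2 for Mertk, 1 for Axl, 1 for Pros1 and 3 for Tyro3. Among the members themselves the correlations ran from -0.43 to 0.36 over the same 12 libraries. The genes of the lists were picked for the highest r among all genes kept, so their r gives no measure for these pairs.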

How the data were processed

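RNA from 12 BMDM libraries of 4 groups (3 each) was sequenced as paired reads. Per the labels, reads were trimmed with Trimmomatic 0.36, aligned to mm10 with HISAT2 and counted with HTSeq; the kit notes name both rRNA removal and polyA RNA. The authors deposited raw counts per transcript (115140 rows, 43131 genes), with no further scaling, and transcript lengths. For each gene the row with the highest total was used, giving 33577087 to 56445268 counts per library; every column was matched to a sample by its heading. The precision of a value follows from its count, and counting error is only part of the spread between libraries.

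Genes were filtered by filterByExpr, scaled by TMM and tested by edgeR 4.0.16 (R 4.3.3) quasi-likelihood fits, pairwise on 6 libraries and for the interaction on 12, on the log2 scale; levels are TMM scaled CPM. The DEG rule followed the study's thresholds (fold change 2, adjusted p 0.01); DESeq2 1.42.0 and limma 3.58.1 were alternatives, besides other scaling, filters, a replicate block, exchanged headings and omission of libraries. The scripts were tested on simulated data.

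The 5 genes, the pathway and marker lists and the tests were chosen with earlier results of these data known. The genes named were the members, Tlr4, Lyz2 and Il1b, up to 3 DEGs of largest change per list and comparison, and the 5 genes most like each member. Adam17, Ggcx, Mfge8 and Tmem255b were further described for their role or position. Promoters and gene positions came from RefSeq (GRCm38.p6) and from GENCODE on mm10. Replicate numbers are shared by the groups, but libraries of 1 number deviated together in only some pairs, so they were not taken as pairs. Promoters were not searched for motifs, because no table of motifs was used here. Some genes that the lists or the likeness search held are not reported here, and the counts of the lists leave them out.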

Additional observations from a re-analysis of the deposited data

How the results depend on the processing

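Gas6 was lower in the 4 comparisons under every alternative, and its DEG calls depended on the alternative as given here; the causes were not tested. The count of DEGs among the TAM genes was 1 between genotypes without LPS, and 0 with the 3 libraries of high stroma markers left out (an alternative chosen after seeing the data) and 0 to 1 over the omissions of 1 library. With the headings exchanged it was 0. With LPS it was 1, and 2 with an adjusted p below 0.05 and no fold limit, which 61.4% of all genes passed. Omissions gave 1 in each fit. Between LPS+ and LPS- tlr4f/f it was 0, and 1 with an adjusted p below 0.05, which 1.27% of all genes passed. It was also 1 with no filter, with all 12 libraries in 1 fit or with headings exchanged. DESeq2 gave 2, and omissions gave 0 to 2. Between LPS+ and LPS- tlr4f/f-lysM-cre it was 1, and 0 with summed transcript rows, 2 without the libraries of high stroma markers, where LPS- tlr4f/f-lysM-cre was 1 library whose spread was assumed to be that of the other group, and 0 to 1 over omissions. For the interaction it was 0 in every fit, omissions included (0 to 0). Exchanged headings aside, the share of all genes called under the other alternatives was not counted.

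With the replicate block, the DEG count became 2 between genotypes with LPS, where Axl was added (log2 fold change 1.24, edgeR adjusted p = 3.45e-09), and 0 between LPS+ and LPS- tlr4f/f-lysM-cre (Gas6 -1.36, edgeR adjusted p = 0.0113); the other counts stayed. Axl between LPS+ and LPS- tlr4f/f turned to 0.33. The numbers were not shown to pair the samples: deviations of same-numbered libraries correlated from -0.04 to 0.47, and 10 of 12 libraries correlated best with their own number.

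The log2 fold changes that changed sign belonged to results that were no DEG. With the headings exchanged, Mertk was -1.02, Axl -0.97 and Pros1 0.93 between genotypes without LPS, Mertk -1.58 and Pros1 0.62 with LPS, Mertk 1.14, Axl 0.046 and Pros1 -0.054 between LPS+ and LPS- tlr4f/f, and Mertk 0.59 and Pros1 -0.35 in tlr4f/f-lysM-cre; these are the values of the comparison whose name each takes. Pros1 between genotypes without LPS was 0.035 with DESeq2 and 0.035 with RLE size factors. With limma voom and sample quality weights Axl was 0.86 between LPS+ and LPS- tlr4f/f, and the interaction was 0.13 for Mertk, -0.34 for Axl and 0.013 for Pros1. Without the libraries of high stroma markers Pros1 was 0.35 between genotypes without LPS, Axl -0.77 and Pros1 -0.15 between LPS+ and LPS- tlr4f/f-lysM-cre, and the interaction of Gas6 -0.22. Over omissions of 1 library, ranges that crossed 0 were, between genotypes without LPS, -0.76 to 2.31 for Axl and -0.63 to 0.70 for Pros1. Between LPS+ and LPS- they were -1.50 to 1.29 in tlr4f/f and -0.25 to 0.95 in tlr4f/f-lysM-cre, both for Axl. For the interaction they were -1.003 to 0.35 for Mertk, -1.13 to 1.95 for Axl, -0.056 to 0.43 for Gas6 and -1.06 to 0.28 for Pros1. An omission leaves 2 libraries in a group. Tyro3 has no fit in 3 comparisons because of its counts, and at 19 or fewer counts per library its differences were not detectable at this depth.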
